A study of Mus musculus with 9 samples.

Results

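The platelet-derived growth factor (PDGF) family was measured by 6 genes, the 4 ligand genes Pdgfa, Pdgfb, Pdgfc and Pdgfd and the 2 receptor genes Pdgfra and Pdgfrb, out of 18194 genes with a probe set of their own on the array. A probe set is a group of short probes near the 3' end of a transcript. Of 45101 probe sets, 14 were annotated to one of these genes alone. Each gene was read by its probe set with the highest mean over all arrays, and the other probe sets served as a check.

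The samples were XX mouse ovaries of E13.0, isolated without the mesonephros, and grafts of such ovaries recovered 4, 7, 10, 15 or 20 days after transplantation under the kidney capsule of adult male nude mice (BALB/c nu/nu, XY). The labels give ICR as the donor strain, and the methods give C57BL/6 and ICR. All groups, including the ungrafted ovaries of day 0, came from embryos whose mothers were given busulfan, an alkylating drug that depletes germ cells. Days 0, 10 and 20 had 2 arrays each, days 4, 7 and 15 had 1 array each, and every array held a pool of approximately 10 grafts or ovaries. The grafts stay in an adult host that keeps its own vessels and blood cells, and no source names the litters or hosts that went into a pool. The p-values therefore reflect how far pooled samples differ from each other, which may be technical.

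PDGF ligands are secreted dimers that bind a pair of receptor tyrosine kinases, and they act mostly from epithelial or endothelial cells onto neighbouring mesenchymal cells. PDGFRA is carried by mesenchymal progenitors and stromal cells, including the progenitors of steroid-producing cells in the gonads, and PDGFRB by pericytes and vascular smooth muscle. PDGF-A and PDGF-B are released in active form, whereas PDGF-C and PDGF-D carry a CUB domain that a protease must cut off before they can bind.

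Some facts of the whole series bear on these genes. Array medians lay between 6.49 and 6.63 on the log2 scale. Foxl2, a transcription factor of ovarian granulosa cells, read between 11.71 and 12.98 in the 7 graft arrays, against 11.44 and 11.58 on day 0. It was the only gene of the 10 on the fetal ovary somatic list that stood above its day 0 mean on days 10 and 20. The median log2 changes of that list were -1.42 and -2.03. By their median, genes of the kidney proximal tubule stood high on 1 array: on day 20, their median difference from the day 0 mean was 5.47 for replicate 1 and -0.16 for replicate 2. Miox, of this list, read 5.43 and 5.58 on day 0. It was also high on other graft arrays: 7.96 and 10.19 on day 10, 10.00 on day 15 and 9.86 on day 20 replicate 2. The germ cell list differed between the day 0 arrays, with a median of -1.10 on replicate 1 and 1.10 on replicate 2 around their mean. Changes of the PDGF genes, and the counts of the gene lists on days 10 and 20, were therefore also computed without day 20 replicate 1 and without each day 0 array. The text says where a call, or the count of a list described below, moved.

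The RefSeq table (GRCm38.p6) held promoter windows for 4 of the 6 genes. Those of Pdgfd and Pdgfc are shown, since one gene rose in the grafts and the other did not pass the test, and since the printed bases of both lie wholly upstream of the annotated gene. The windows of Pdgfra and Pdgfa lie inside the annotated gene and are not shown. Capitals mark a TATA box (TATAAA).
Pdgfd, chr9:6168236-6168362, plus strand: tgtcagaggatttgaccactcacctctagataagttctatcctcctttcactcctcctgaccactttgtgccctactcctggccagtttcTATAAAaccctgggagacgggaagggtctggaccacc
Pdgfc, chr3:81036166-81036415, plus strand: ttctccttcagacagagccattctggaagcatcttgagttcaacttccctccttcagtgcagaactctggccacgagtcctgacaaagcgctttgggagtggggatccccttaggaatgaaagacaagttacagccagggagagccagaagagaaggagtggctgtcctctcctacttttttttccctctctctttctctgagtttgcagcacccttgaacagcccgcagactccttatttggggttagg

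Each window of 250 bases before a transcript start was searched whole, and of that of Pdgfd the 127 bases upstream of the gene are printed. The TATAAA match of Pdgfd began 160 bases before the transcript start that sets the window and 37 bases before the first annotated base of the gene, which lies upstream of that start. Of 32851 RefSeq windows of 250 bases, 12.368% held this motif on either strand. Matches to a GC box (GGGCGG, 32.742% of windows), a CCAAT box (CCAAT, 33.85%), an AP-1 site (TGANTCA, 6.749%) and a GLI site (GACCACCCA, 0.225%) were searched on both strands too, and these letters are not in the window of Pdgfd or Pdgfc. The 5 motifs were chosen after the sequences had been seen. A match is a description of the letters and not of binding.

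Pdgfra and Pdgfd rose in the grafts and stayed high to day 20. Pdgfb and Pdgfrb also read above both day 0 arrays on all 7 graft arrays. Of these, Pdgfb was called on days 10 and 15 only, and Pdgfrb was not called on any day. Pdgfa and Pdgfc passed the test on no day. A gene was called where its change from day 0 passed limma's moderated test with an adjusted p under 0.05 and exceeded 2-fold. No gene was called on day 4, 1 on day 7 (Pdgfd), 3 on days 10 and 15 (Pdgfb, Pdgfd and Pdgfra) and 2 on day 20 (Pdgfd and Pdgfra), all of them higher in the grafts. The limma test gave 3, 4, 4, 4 and 4 of the 6 genes an unadjusted p under 0.05, from day 4 to day 20 in order. Each of these rose. Among all 45101 probe sets, 2550, 3067, 4289, 3948 and 4963 had such a p and a rise on those days. Another 1955, 2961, 5114, 3910 and 7135 had such a p and a fall. Over all probe sets, the share called higher was 0.774%, 1.28%, 2.87%, 2% and 4.52% on those days, and the share called lower was 0.155%, 0.386%, 1.33%, 0.8% and 3.1%. The median log2 change of the 6 genes was 0.80, 1.06, 1.31, 1.52 and 1.04 on those days, beside -0.06, -0.08, -0.09, -0.09 and -0.11 over all probe sets. These arrays hold bulk tissue, so that more cells of a type and more RNA per cell cannot be told apart.

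**Figure D1:**
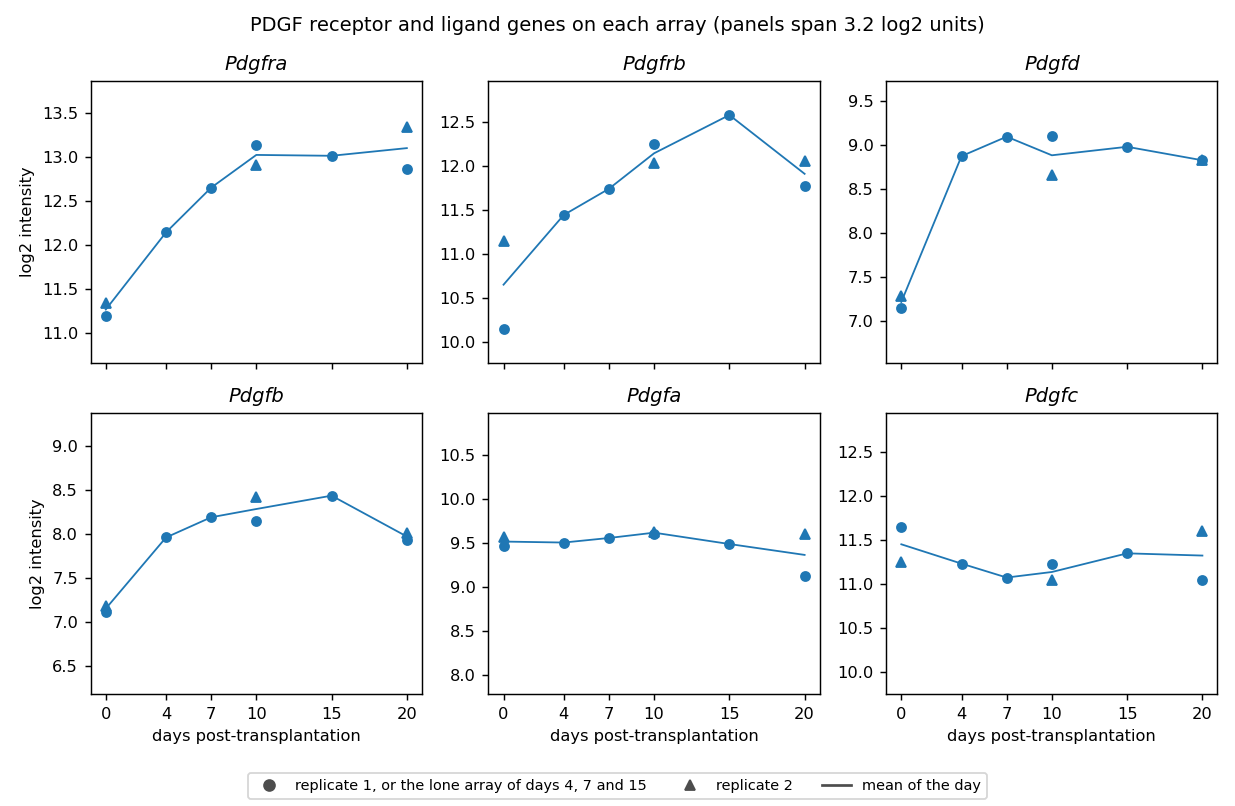
Log2 intensity of each PDGF gene (y axis) against days post-transplantation (x axis), with circles for replicate 1 or the lone array of days 4, 7 and 15, triangles for replicate 2 and lines through the day means. Pdgfra reads 12.15 to 13.34 in the grafts, against 11.19 and 11.35 on day 0, whereas Pdgfa stays between 9.13 and 9.63 on all 9 arrays.

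Pdgfra, the receptor for PDGF-A, PDGF-B and PDGF-C, rose 3.38-fold on day 10 and 3.57-fold on day 20. Its log2 intensity was 11.19 and 11.35 on day 0, 12.15 on day 4, 12.66 on day 7, 13.14 and 12.92 on day 10, 13.02 on day 15, and 12.87 and 13.34 on day 20. Every graft array stood above both day 0 arrays, days 4 and 7 lay below all later arrays, and days 10, 15 and 20 overlapped. The log2 change was 1.76 ± 0.22 on day 10 (SE, limma adjusted p = 0.0153), 1.75 ± 0.26 on day 15 (adjusted p = 0.0357) and 1.83 ± 0.22 on day 20 (adjusted p = 0.00934). The changes of 0.88 on day 4 and 1.39 on day 7 had adjusted p-values of 0.32 and 0.0823. Without day 20 replicate 1, the array with kidney genes, the day 20 change was 2.07 (adjusted p = 0.0134). The day 20 call was lost without either day 0 array (adjusted p = 0.069 without replicate 1 and 0.061 without replicate 2), and the day 10 call without any single array of days 0 or 10 (adjusted p = 0.0909 to 0.132). The day 15 call was lost without the same arrays (adjusted p = 0.11 to 0.155).

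The other probe sets of Pdgfra were dimmer. The second read 7.67 to 8.68 in the grafts, against 6.72 and 6.87 on day 0, with a log2 change of 1.43 on day 20 (limma adjusted p = 0.0504). The dimmest read 6.89 to 8.01 in the grafts, against 6.31 and 7.37 on day 0, so that its groups overlapped, and it passed on no day. The study lists Pdgfra in its own tables made from these arrays, so that its direction here is not independent evidence.

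Pdgfrb, the receptor of pericytes and vascular smooth muscle, was higher in all graft arrays than in both day 0 arrays but was not called on any day. It read 10.15 and 11.15 on day 0, 11.44 on day 4, 11.74 on day 7, 12.25 and 12.03 on day 10, 12.58 on day 15, and 11.77 and 12.05 on day 20. The day 0 arrays lay farther apart than either other pair of duplicates. The log2 change was 1.49 ± 0.34 on day 10 (SE, limma adjusted p = 0.0795), 1.93 ± 0.42 on day 15 (adjusted p = 0.087) and 1.26 ± 0.34 on day 20 (adjusted p = 0.0814). The day 20 value was 0.76 without day 0 replicate 1 and 1.76 without day 0 replicate 2, so that it depended on the day 0 array kept. Its second probe set read 9.02 to 10.07 in the grafts, against 8.03 and 8.99 on day 0, with a change of 1.08 on day 10 (adjusted p = 0.168).

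Pdgfd, a ligand that acts mainly through PDGFRB after its CUB domain is removed, was the gene of the family with the earliest call. Its log2 intensity was 7.15 and 7.28 on day 0, 8.88 on day 4, 9.10 on day 7, 9.11 and 8.67 on day 10, 8.98 on day 15, and 8.83 on both arrays of day 20. The step between day 0 and day 4 exceeded the spread among the 7 graft arrays, which overlapped from day 4 on. The change was 1.66 ± 0.24 on day 4 (SE, limma adjusted p = 0.0551), 1.88 ± 0.24 on day 7 (adjusted p = 0.0281), 1.67 ± 0.20 on day 10 (adjusted p = 0.0137), 1.76 ± 0.24 on day 15 (adjusted p = 0.027) and 1.61 ± 0.20 on day 20 (adjusted p = 0.0103). The fold was thus between 3.05 and 3.68 on the days called. The call was lost on day 20 without either day 0 array (adjusted p = 0.0728 and 0.0645) and on day 10 without any single array of days 0 or 10 (adjusted p = 0.0742 to 0.0983). It was lost without the same arrays on day 7 (adjusted p = 0.0844 to 0.132) and on day 15 (adjusted p = 0.0617 to 0.132).

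The second probe set of Pdgfd read 6.61 to 7.23 in the grafts, against 5.23 and 5.30 on day 0, and was called on days 10, 15 and 20 with log2 changes of 1.92, 1.92 and 1.63 (limma adjusted p = 0.0134, 0.0302 and 0.0139). The dimmest read 3.15 to 3.60, below the 25th percentile of all values (4.82) on every array, and did not pass.

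Pdgfb, the ligand that endothelial cells and platelets release to recruit pericytes, rose 2.19-fold on day 10 and 2.44-fold on day 15. It read 7.12 and 7.19 on day 0, 7.97 on day 4, 8.20 on day 7, 8.16 and 8.42 on day 10, 8.44 on day 15, and 7.94 and 8.01 on day 20. All graft arrays stood above day 0, and both day 20 arrays lay below those of days 7, 10 and 15. The change was 1.13 ± 0.16 on day 10 (SE, limma adjusted p = 0.0242) and 1.28 ± 0.20 on day 15 (adjusted p = 0.0388). On day 20 the change of 0.82 ± 0.16 had an adjusted p of 0.038 and stayed under 2-fold. The day 10 call was lost without any single array of days 0 or 10 (adjusted p = 0.117 to 0.211), and the day 15 call without the same arrays (adjusted p = 0.108 to 0.161). Its second probe set read 6.07 to 6.68 in the grafts, against 5.72 and 5.91 on day 0, and had a change of 0.44 on day 10 (adjusted p = 0.264).

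Pdgfa, a ligand of PDGFRA made by many epithelia, passed the test on no day. It read 9.47 and 9.57 on day 0, 9.51 on day 4, 9.56 on day 7, 9.61 and 9.63 on day 10, 9.49 on day 15, and 9.13 and 9.60 on day 20. The lowest value came from day 20 replicate 1, the array with kidney genes. The day 20 change was -0.15, with a 95% interval of -0.65 to 0.35, and it was 0.09 without that array. The second probe set read between 9.18 and 9.63 on all arrays.

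Pdgfc, the other ligand that needs its CUB domain cut off, also passed on no day. It read 11.65 and 11.25 on day 0, 11.23 on day 4, 11.07 on day 7, 11.23 and 11.04 on day 10, 11.35 on day 15, and 11.04 and 11.60 on day 20. The graft arrays lay within or just below the day 0 values. The day 20 change was -0.13, with a 95% interval of -0.76 to 0.50, and the day 10 change was -0.31, with an interval of -0.94 to 0.31. The second probe set read 10.69 to 11.35 in the grafts, against 11.41 and 10.97 on day 0.

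**Figure D2:**
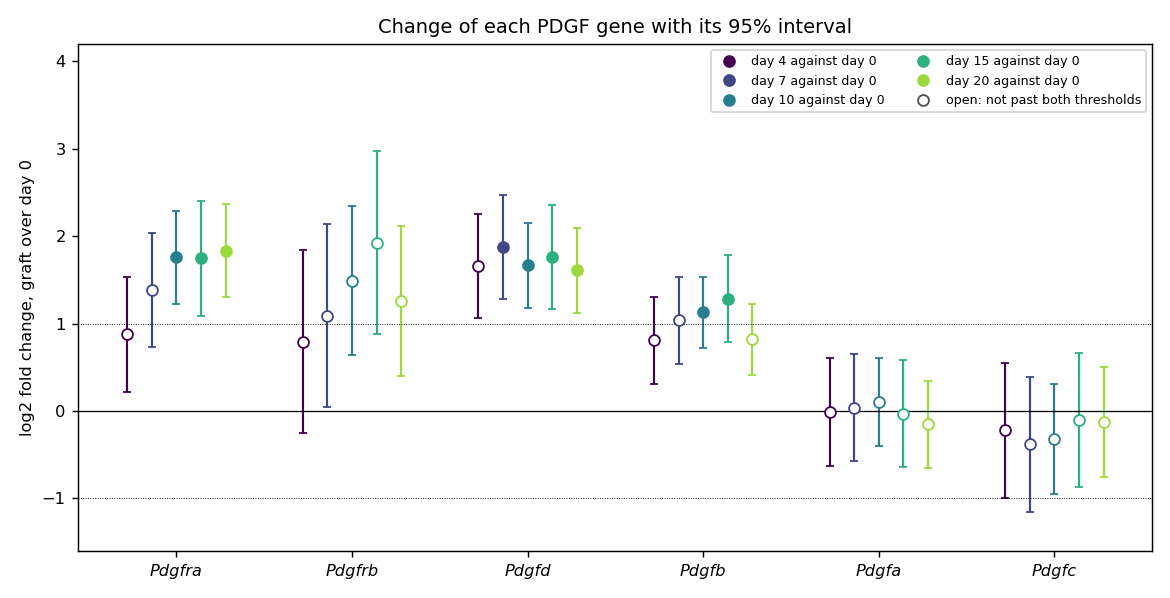
Log2 fold change of each PDGF gene, graft over day 0 (y axis), for each gene (x axis) and day (colour), with 95% intervals from limma; filled points pass both thresholds and dotted lines mark 2-fold. Filled points belong to Pdgfra, Pdgfd and Pdgfb, and the intervals of Pdgfa and Pdgfc include 0 on every day.

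Set against day 10, day 20 showed no call among the 6 genes, and limma gave none of them an unadjusted p under 0.05. Over all probe sets 0.00222% were called higher and 0% lower, with 1419 and 834 at an unadjusted p under 0.05. The log2 change was 0.08 for Pdgfra (95% interval -0.46 to 0.61), -0.23 for Pdgfrb (-1.09 to 0.62), -0.06 for Pdgfd (-0.54 to 0.43) and -0.31 for Pdgfb (-0.72 to 0.09). For Pdgfa it was -0.25 (-0.75 to 0.25) and for Pdgfc 0.19 (-0.44 to 0.82), so that the interval of every gene but Pdgfrb excluded a fall beyond 2-fold. Without day 20 replicate 1 none was called either, and the changes were 0.32 for Pdgfra, -0.09 for Pdgfrb, -0.06 for Pdgfd, -0.28 for Pdgfb, -0.01 for Pdgfa and 0.47 for Pdgfc.

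The 4 genes Pdgfb, Pdgfd, Pdgfra and Pdgfrb stood above both day 0 arrays on all 7 graft arrays, as did 10.268% of all probe sets. Across the 9 arrays Pearson's r was 0.90 between the receptors, 0.91 between Pdgfb and Pdgfd, 0.89 between Pdgfra and Pdgfd, and 0.84 to 0.89 for the remaining pairs of these genes. Pdgfa and Pdgfc had r between -0.47 and 0.22 with each other and with the other genes. These points share the step between day 0 and the grafts, and the arrays of a day are not independent of it, so that r is given as a description. Pdgfb, Pdgfd, Pdgfra and Pdgfrb stood at places 199 to 697 for each other by r, among 6280 genes ranked.

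**Figure D3:**
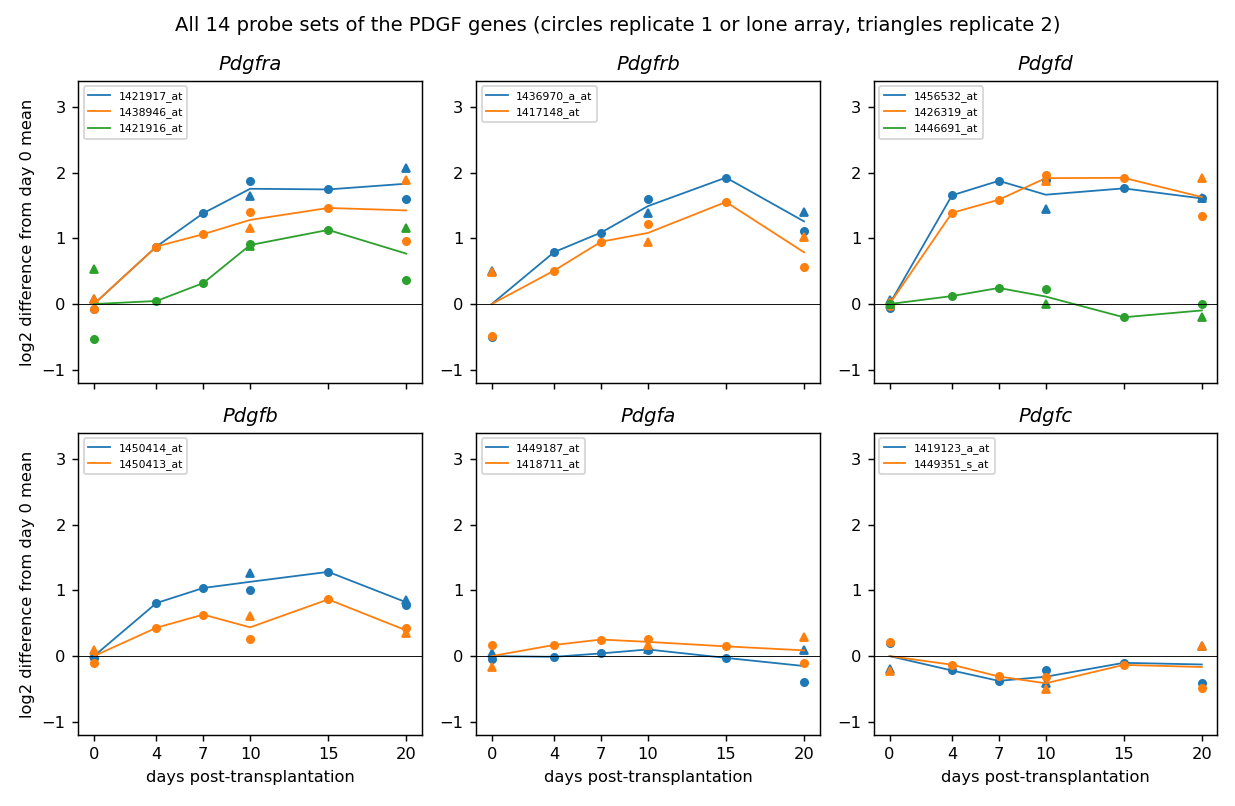
Log2 difference from the day 0 mean (y axis) of all 14 probe sets of the PDGF genes against days post-transplantation (x axis), with circles for replicate 1 or the lone array and triangles for replicate 2. The second probe set of Pdgfd runs close to the first, and its dimmest, below the 25th percentile of all values, stays near 0.

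Among 6280 genes with a range of at least 1 log2 unit, those whose values followed each gene most closely over the 9 arrays were found by Pearson's r. For Pdgfra they were Abcb1a (r = 0.99), a drug efflux pump, Mylk, the myosin light chain kinase of smooth muscle, Tgfbr3, a co-receptor of TGF-beta ligands, Sulf2, a heparan sulfatase, and Nr5a2, a nuclear receptor of granulosa cells. For Pdgfd they were Tgfbr2 (r = 0.99), a TGF-beta receptor, Htra3, a secreted serine protease, Akr1c14, a steroid dehydrogenase, Col6a2, a collagen VI chain, and Pdzrn3, a ubiquitin ligase. For Pdgfb they were Pmepa1 (r = 0.99), Cdh13, a cadherin without a cytoplasmic tail, Syt1, a calcium sensor of vesicle release, Ets2, a transcription factor, and Cavin1, a coat protein of caveolae. For Pdgfrb they were Fam20b (r = 0.99), a kinase of proteoglycan assembly, Myo1e, an unconventional myosin, Gpm6b, Slc2a13, a myo-inositol transporter, and Angpt1, a ligand of the endothelial receptor Tek. The ranges of Pdgfa and Pdgfc were under 1 log2 unit, so that no genes were ranked for them.

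Among genes that activate PDGF ligands or assist their receptors, Plau and Pdgfrl rose. Of 10 measured, 3 were called higher on day 10 (Pdgfrl, Plau and Lrp1) and 2 on day 20 (Pdgfrl and Plau), with median log2 changes of 0.79 and 0.70. Over all probe sets, 2.87% were called higher on day 10 and 4.52% on day 20. Plau, the urokinase that can cut PDGF-D into its active form, read 8.50 to 10.20 in the grafts, against 6.85 and 6.50 on day 0. Its log2 change was 2.02 on day 10 (limma adjusted p = 0.0147) and 3.24 on day 20 (adjusted p = 0.00312). Plat, the tissue plasminogen activator that can cut PDGF-C, read 10.66 to 11.55 in the grafts, against 11.31 and 11.22 on day 0, and did not pass. Pdgfrl, a gene whose product resembles the ligand-binding part of a PDGF receptor, changed by 3.34 on day 10 and 2.97 on day 20. It also belongs to the fibroblast and stroma list below. Lrp1, an endocytic receptor that partners PDGFRB, changed by 1.07 on day 10 (adjusted p = 0.0227). Without either day 0 array, the call of Pdgfrl was the only one left on day 10, and Plau (adjusted p = 0.0642 and 0.101) and Lrp1 (adjusted p = 0.104 and 0.133) lost theirs. Without day 20 replicate 1, Lrp1 was called on day 20 too, with a change of 1.05 (adjusted p = 0.0286).

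In the signalling machinery, few genes were called in either direction. Of 21 adapters and enzymes of PDGF receptor signalling, 1 was called higher on day 10 and 2 higher and 1 lower on day 20, with medians of 0.10 and -0.08. The shares of all probe sets called higher and lower were 2.87% and 1.33% on day 10, and 4.52% and 3.1% on day 20. Pik3r1, a regulatory subunit of PI3-kinase, rose by 1.62 on day 10 and 1.43 on day 20 (limma adjusted p = 0.0131 and 0.0125), and Stat5a by 1.32 on day 20 (adjusted p = 0.0103). Src, a tyrosine kinase recruited to the receptors, was called lower on day 20 with a change of -1.01 (adjusted p = 0.0237), but the change was -0.86 and under 2-fold without day 20 replicate 1 (adjusted p = 0.0444). Of 13 genes of receptor inhibition and turnover, none was called on day 10 by limma and only Spry4, a feedback inhibitor of receptor tyrosine kinases, on days 15 and 20. Spry4 read 9.45 on day 15 and 8.25 and 8.47 on day 20, against 6.70 and 6.78 on day 0, with changes of 2.71 on day 15 (adjusted p = 0.00902) and 1.61 on day 20 (adjusted p = 0.00707). Without either day 0 array, no gene of these 2 lists was called on days 10 or 20. With day 20 replicate 1 left out, Ptprk, a receptor tyrosine phosphatase, was called on day 10, with a change of 1.12 (adjusted p = 0.0472).

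Of 6 related receptors, only Csf1r, the receptor of macrophages, was called, with changes of 2.13 on day 10 and 2.98 on day 20 (limma adjusted p = 0.0443 and 0.0125). Its call was lost on day 10 without either day 0 array (adjusted p = 0.148 and 0.0887) and on day 20 without day 0 replicate 1 (adjusted p = 0.0635). Kit, Flt1, Kdr, Flt3 and Flt4 were not called on either day. The share of all probe sets called higher was 2.87%, 2% and 4.52% on days 10, 15 and 20. Of 5 ligands of the VEGF family, relatives of the PDGFs in structure, none was called on day 10. Pgf, the placental growth factor, was called on day 15 with a change of 1.43 (adjusted p = 0.0394), and Vegfc, a growth factor of lymphatic vessels, on day 20 with a change of 1.43 (adjusted p = 0.0337). The call of Vegfc was lost without day 20 replicate 1 (adjusted p = 0.0912), day 0 replicate 1 (adjusted p = 0.116) or day 0 replicate 2 (adjusted p = 0.0569).

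Markers of the cell types that carry PDGF receptors were called higher in numbers that differed by day. From day 4 to day 20 in order, the share of all probe sets called higher was 0.774%, 1.28%, 2.87%, 2% and 4.52%. Of 12 pericyte and smooth muscle markers, 8 were called higher on day 10 and 7 on day 20, none lower, with median log2 changes of 2.32 and 1.83, and 0, 5 and 6 on days 4, 7 and 15. Their summed intensity was 11850 to 33100 in the grafts, against 5179 and 5199 on day 0. Abcc9, a potassium channel subunit of pericytes, changed by 4.19 on day 10 and Acta2, smooth muscle actin, by 2.82. Not every member rose. Notch3 read 9.22 and 9.26 on day 0, 9.39 on both day 10 arrays, and 8.42 and 8.97 on day 20. Anpep read 6.49 and 6.78 on day 0, 6.74 and 6.69 on day 10, and 6.54 and 6.92 on day 20. Of 10 fibroblast and stroma markers, 8 were called higher on each of days 7, 10, 15 and 20 and 7 on day 4, none lower, with day 10 and day 20 medians of 2.86 and 2.62 and a summed intensity of 100200 to 112100 in the grafts, against 26600 and 28790 on day 0. Dcn, the matrix proteoglycan decorin, changed by 3.72 and 3.76. Of 8 theca and steroidogenic progenitor genes, 4 were called higher on day 10 and 7 on day 20, none lower, and 0, 0 and 3 on days 4, 7 and 15, with day 10 and day 20 medians of 1.22 and 2.34 and a summed intensity of 6731 to 19350 in the grafts, against 3325 and 4160 on day 0. Gli1 and Ptch1, targets of hedgehog signalling, changed by 2.47 and 2.16 on day 10. Cyp17a1 and Cyp11a1, enzymes of steroid synthesis, were not called on day 10, with changes of -0.99 and -0.63, and were called higher on day 20, with changes of 1.53 and 1.26. Without day 20 replicate 1 the day 20 counts of these lists were 7, 8 and 7, with medians of 2.27, 2.49 and 2.61. When day 0 replicate 1 was left out, 4 pericyte, 5 stromal and 0 theca markers were called on day 10, and 4, 7 and 2 of them on day 20. When day 0 replicate 2 was left out, 5 pericyte, 7 stromal and 1 theca marker were called on day 10, and 5, 7 and 2 of them on day 20. The part of these cell types in the change of the PDGF genes was not tested.

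Endothelial cells, megakaryocytes with their platelets, and macrophages make PDGF-B. Beside the counts below, the share of all probe sets called higher was 0.774%, 1.28%, 2.87%, 2% and 4.52% from day 4 to day 20 in order. Of 12 endothelial markers, 1 was called higher on each of days 10 and 20 (Vwf, the von Willebrand factor, 2.65 and 2.23), none lower, with medians of 0.27 and 0.15 and a summed intensity of 4539 to 8008 in the grafts, against 4553 and 6152 on day 0. Of 8 megakaryocyte and platelet markers, none was called on days 10 or 20, with medians of -0.32 and -0.34. The changes of 7 of them lay below 0 on both days, between -1.68 and -0.02. Pf4, a platelet chemokine, was the exception, with 8.64 to 9.83 in the grafts, against 7.40 and 8.32 on day 0, and was not called either. Of 12 macrophage markers, 7 were called higher on day 10 and 10 on day 20, none lower, and 5, 5 and 3 on days 4, 7 and 15, with day 10 and day 20 medians of 1.90 and 2.56 and a summed intensity of 12630 to 43140 in the grafts, against 2029 and 3261 on day 0. With day 20 replicate 1 left out, Vwf was not called on day 20 (adjusted p = 0.0613), Esam, an adhesion molecule of endothelial cells, was called on day 10 beside Vwf (1.23), and the day 20 macrophage count was 7. Without day 0 replicate 1 the macrophage count was 2 on day 10 and 4 on day 20, without day 0 replicate 2 it was 4 and 7, and Vwf was called on neither day without either of them. Without day 0 replicate 1 the platelet count called lower moved, and Ppbp, another platelet chemokine, changed by -2.58 on day 10 and -3.02 on day 20. Ppbp read 4.06 on day 0 replicate 1, 6.73 on day 0 replicate 2 and 3.70 to 4.33 in the grafts. Its graft values thus lay below the 25th percentile of all values (4.82), and these changes rest on 1 day 0 array. The difference between these lists was not tested.

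Genes of the host kidney and of the fetal ovary went other ways. The summed intensity of 12 proximal tubule genes was 51220 on day 20 replicate 1 and 805.0 to 2330 on the other graft arrays, against 801.3 and 976.3 on day 0. Every PDGF gene except Pdgfd read lower on that array than on the other array of day 20, and the part of kidney RNA in this was not tested. Over all probe sets, 1.33% were called lower on day 10 and 3.1% on day 20. Of 10 somatic genes of the fetal ovary, 4 were called lower on day 10 and 8 on day 20, none higher, with medians of -1.42 and -2.03. Foxl2 was the only one of them above 0 on these days, with changes of 1.29 and 0.83 that were not called. Without day 20 replicate 1, 7 of the list were called lower on each of these days and Foxl2 was called higher (1.29 and 1.47), with a day 20 median of -1.57. Without either day 0 array, none was called on day 10 and 1 was called lower on day 20. Lhx9, a homeobox gene of the early gonad, fell by 3.39 on day 10. Of 8 germ cell genes none was called with all arrays. Their median ranged over the graft arrays between -2.83 and 0.93, against -1.10 and 1.10 on day 0. Their median change was -0.16 on day 10 and -0.21 on day 20. Without day 0 replicate 1 the count called lower moved, and these medians were -1.33 and -1.26. Without day 0 replicate 2 they were 1.01 and 0.85.

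**Figure D4:**
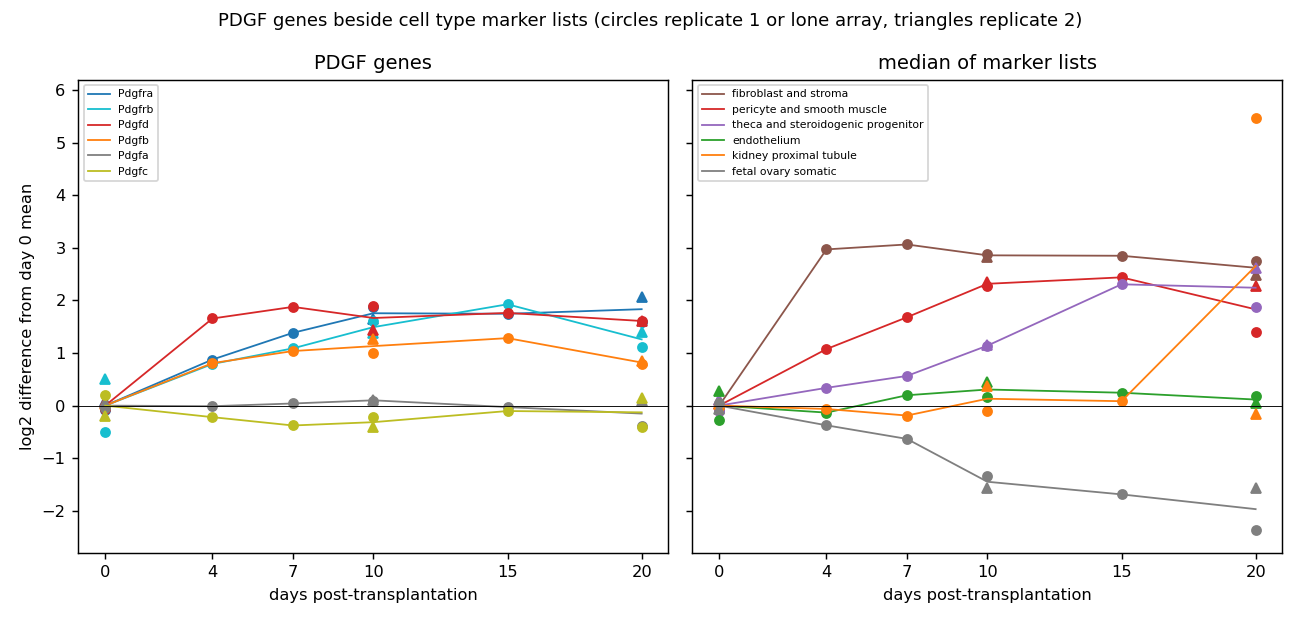
Log2 difference from the day 0 mean (y axis) against days post-transplantation (x axis), for each PDGF gene in the left panel and for the median of each marker list in the right panel; circles are replicate 1 or the lone array, triangles replicate 2 and lines the day means. The fibroblast, pericyte and theca lists lie above 0 on every graft array, the endothelial list stays between -0.27 and 0.44, and the proximal tubule list reaches 5.47 on day 20 replicate 1.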

How the data were processed

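RNA of 9 pools was labelled and hybridised to Affymetrix Mouse Genome arrays. The authors deposited log2 intensities made with RMA, which corrects background, normalizes arrays by quantiles and summarises each probe set. The sources used here give no version of it. The kit that labelled each array, one of a pair, is not stated. No detection calls come with these log2 values. Precision rests on the few arrays and on the spread borrowed across probe sets.

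A mean per day was fitted to all 45101 probe sets and 9 arrays with limma 3.58.1 in R 4.3.3 (lmFit, eBayes), with 3 residual and 2.69 prior degrees of freedom, so that days with 1 array borrow the spread of the others. The p-values were adjusted by the Benjamini-Hochberg method across every probe set, and calls needed an adjusted p under 0.05 and over 2-fold. The test was also run on simulated data. Tables used Python 3.11.15 with pandas 2.3.3 and numpy 2.4.6, and plots used matplotlib 3.10.9. The annotation gave one gene symbol to 34958 probe sets, several to 932 and none to 9211.

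The genes named are the 6 PDGF genes, the 5 genes most correlated with each of them that had a range of at least 1, and list members that passed on day 10 or 20, at most 4 per list, plus members needed to describe cell content. List genes without a probe set of their own were not analysed here. The members and lists were chosen with earlier results of these data known. Alternatives were an intensity trend, quantile normalization, median centring, a filter and a floor on low values, only the days compared, a replicate block, each duplicate array left out, a threshold of 1.5-fold, 1 probe set per gene in the adjustment, and other probe sets.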

Additional observations from a re-analysis of the deposited data

How the results depend on the processing

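Quantile normalization and median centring of the deposited values, and a threshold of 1.5-fold, kept the number of PDGF genes called within 1.5 times the reported number on each day. On day 4, where none was called, 1 (Pdgfd) was called with probe sets above the median or with 1 probe set per gene in the adjustment. On day 7, where 1 was called, an intensity trend gave 2, a floor at the 25th percentile 0, only the arrays of the days compared 0, and the second probe sets 0. On days 10 and 15, where 3 were called, the floor gave 0 and the second probe sets 1 (Pdgfd), and only the arrays of the days compared gave 0 on day 15. On day 20, where 2 were called, the floor gave 1 and the second probe sets 1, both Pdgfd. The cause was not tested. Leaving out one array at a time gave 0 to 2 on day 7, 0 to 3 on days 10 and 15, and 0 to 2 on day 20. The array left out was one of day 0 wherever the day 20 count was 0, and one of days 0 or 10 wherever the day 7, day 10 or day 15 count was 0. The day 7 count was 2 without either day 20 array.

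The replicate block left 3 genes called on day 10, 2 on day 20 and 0 between these days, and it could not be fitted for days with 1 array. Replicate differences of all probe sets correlated at -0.16 between days 0 and 10, 0.15 between days 0 and 20 and -0.13 between days 10 and 20. The labels link the arrays only by a number. These correlations cannot exclude a shared litter or kit, since the duplicates also differ in germ cell or kidney genes.

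Of 570 single values under alternatives, 489 kept their direction and side of the threshold, 56 lost the call, 7 gained it and 18 turned direction. With one array left out at a time, the change of Pdgfa ranged between -0.0611 and 0.0387 on day 4, -0.0093 and 0.0905 on day 7, -0.0778 and 0.022 on day 15, and -0.3895 and 0.0861 on day 20. That of Pdgfc ranged between -0.2987 and 0.093 on day 15 and between -0.4096 and 0.1534 on day 20, where it was 0.0677 without day 0 replicate 1. Between days 20 and 10, Pdgfc ranged between -0.0948 and 0.4682, Pdgfd between -0.2768 and 0.1631, and Pdgfra between -0.1608 and 0.3152. The second probe set of Pdgfa gave 0.1697, 0.1482 and 0.0871 on days 4, 15 and 20, and centring gave it -0.0272 on day 7. The dimmest probe set of Pdgfd, a gene called by its main probe set, gave -0.2015 on day 15 and -0.0973 on day 20, and that of Pdgfra gave -0.1306 between days 20 and 10. The counts of the gene lists without day 20 replicate 1 or either day 0 array were chosen after seeing the data. With 1 or 2 arrays a day and no detection call, smaller changes could not be resolved.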
